A study of Danio rerio with 11 samples.

Results

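The 3 genes described here, gh1, prl2 and pomca, encode hormones of families that vertebrates make in the pituitary, the gland below the hypothalamus. They were taken by symbol from a table of 16536 genes measured in zebrafish brains, and each symbol matched 1 gene ID. They were selected on these same measurements, their CPM levels in the libraries and the differences between genotypes, so both are given as descriptions with no test. The libraries fall into 4 groups by genotype: 3 libraries of csf1ra-/-;b-/- brains (double mutant), 3 of csf1ra-/-;b+/- brains (csf1rb-heterozygous), 3 of csf1ra-/- brains (single mutant) and 2 of wild type brains (control). All 11 came from fish of about 8 months on a TLF x AB background, and all carried mpeg1-GFP, a transgene that marks macrophages and microglia, the control fish included. The labels name neither the alleles, the sex of the fish nor the number of brains per library, and the design text speaks of triplicate controls. In zebrafish csf1ra and csf1rb both encode receptors of colony-stimulating factor 1, on which macrophages and microglia depend. The csf1rb-heterozygous brains also lack csf1ra, so no group carries a csf1rb mutation alone.

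Growth hormone, encoded by gh1, is secreted by somatotroph cells of the anterior pituitary and acts through its receptor, JAK2 and STAT5, with IGF1 as its best known target. Growth hormone-releasing hormone and PACAP from the hypothalamus stimulate its release, and somatostatin inhibits it. prl2 encodes a second fish prolactin, of the same hormone family as growth hormone, and zebrafish express it in the eye and brain. pomca encodes pro-opiomelanocortin, the precursor that prohormone convertases cut into ACTH, melanocyte-stimulating hormone and beta-endorphin, and is made both by pituitary cells and by neurons of the hypothalamus. The values are CPM, a gene's reads brought by the authors to a common library size, and the libraries held 12799766 to 15254244 reads, so that 1 CPM stood for 12.3 to 15.7 reads. CPM is not divided by gene length, so levels are compared between libraries and not between genes.

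The targeted genes were lower in every library labelled with their mutation than in both control libraries. csf1ra had 0.127, 0 and 0.602 CPM in double mutant, 0.905, 0.976 and 0.584 in csf1rb-heterozygous and 1.62, 0.952 and 5.10 in single mutant brains, against 9.66 and 7.33 CPM in control brains. csf1rb had 1.97, 2.52 and 2.08 CPM in double mutant, 3.83, 1.60 and 3.63 in csf1rb-heterozygous and 14.4, 8.42 and 10.7 in single mutant brains, against 21.6 and 13.6 CPM in control brains. The csf1rb values of csf1rb-heterozygous brains, labelled as keeping 1 copy, overlapped those of double mutant brains, and single mutant values overlapped with control. csf1rb fell in double mutant against control (log2 difference -2.51, limma adjusted p = 0.00277) and in csf1rb-heterozygous against control (-2.23, adjusted p = 0.00901), and its difference between these mutant groups was -0.29 (adjusted p = 1.000).

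gh1 (ENSDARG00000038185) was at 0 to 7.17 CPM in the 6 libraries of brains with a csf1rb mutation. In the 5 libraries without one it was at 74.4 to 130 CPM. In double mutant brains it had 0, 0.575 and 0 CPM. In csf1rb-heterozygous brains it had 7.17, 0 and 0 CPM. Single mutant brains had 115, 74.4 and 130 CPM, and control brains 103 and 85.2 CPM. Single mutant and control values overlapped, as did double mutant and csf1rb-heterozygous values, while no value of the 6 csf1rb-mutant libraries came within a factor of 10 of any value of the other 5. The highest csf1rb-mutant library, csf1rb-heterozygous replicate 1, rested on 103 reads (95% counting interval 5.85 to 8.69 CPM), and the double mutant library above 0 rested on 8 reads (0.248 to 1.13 CPM). A count of 0 in the other 4 libraries allowed a level of up to 0.234 to 0.257 CPM (upper end of the 95% counting interval), and these intervals and limits cover counting error only. Bulk tissue cannot tell fewer cells that make gh1 from less gh1 RNA per cell.

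**Figure D1:**
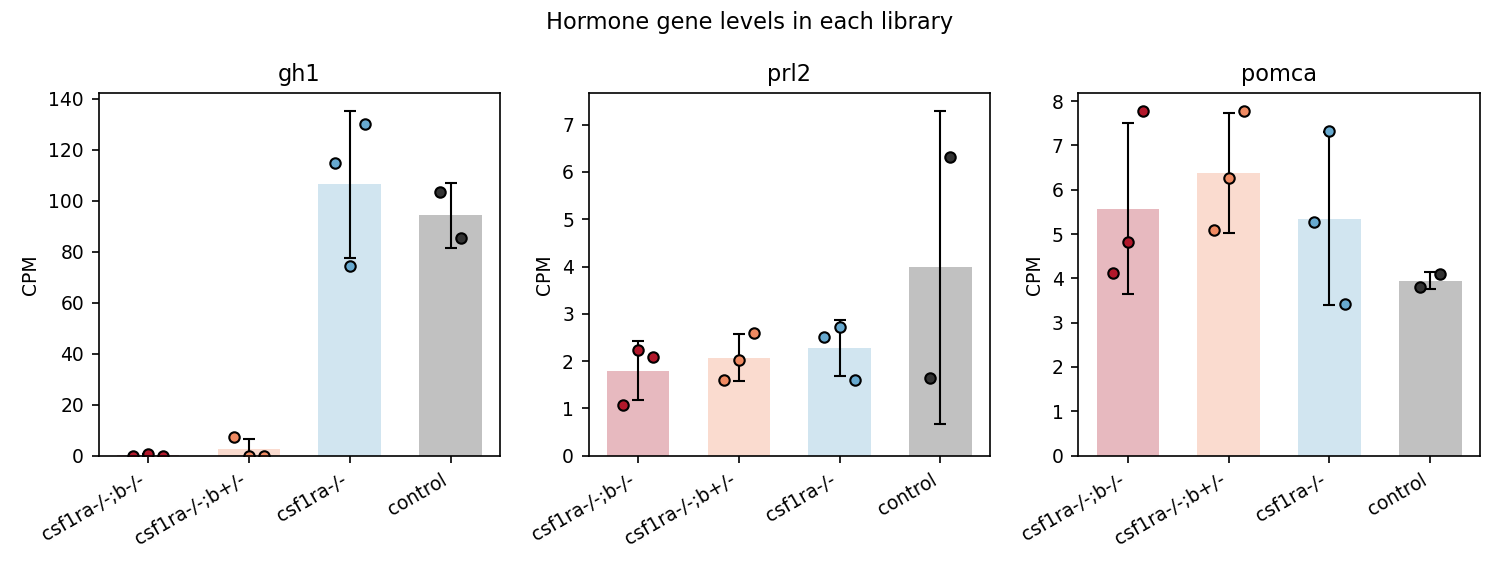
CPM of gh1, prl2 and pomca (vertical axes, linear, each with its own range) in the 4 genotype groups. Points are libraries, bars are group means and error bars are 1 SD (n = 3, and 2 for control). gh1 sits between 0 and 7.17 CPM in the 6 csf1rb-mutant libraries and between 74.4 and 130 CPM in the other 5, while the groups of prl2 and pomca lie close to one another.

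The mean level of gh1 was 0.192 ± 0.332 CPM in double mutant, 2.39 ± 4.14 CPM in csf1rb-heterozygous and 106.4 ± 28.8 CPM in single mutant brains (SD, n = 3 each), and 94.3 ± 12.8 CPM in control brains (SD, n = 2). In the order of these means, the step between csf1rb-heterozygous and control brains exceeded the larger SD of the neighbours, and the steps on either side of it did not. Over pooled reads, gh1 was 530-fold lower in double mutant than in control brains (95% counting interval 268 to 1228) and 40.7-fold lower in csf1rb-heterozygous than in control brains (33.4 to 50.1). Against single mutant brains, which share the loss of csf1ra, the fold was 592 for double mutant brains (300 to 1372) and 45.5 for csf1rb-heterozygous brains. Single mutant brains held 1.12 times the control level (1.06 to 1.17), a gap smaller than the spread between single mutant libraries. The csf1rb-heterozygous fold rests on replicate 1, since the other 2 libraries of that group had no gh1 read.

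On the log2(CPM + 1) scale, used because 4 libraries are at 0, gh1 differed from control by -6.35 in double mutant brains (SE 0.715), by -5.56 in csf1rb-heterozygous brains and by 0.14 in single mutant brains. Against single mutant brains the difference was -6.49 for double mutant brains (SE 0.640) and -5.70 for csf1rb-heterozygous brains. The difference of double mutant against csf1rb-heterozygous brains was -0.79, and it turned to 0.22 without csf1rb-heterozygous replicate 1. Without that library the difference of csf1rb-heterozygous against control brains was -6.57. Adding 1 CPM understates the change where nearly all reads are lost, as in double mutant brains. The authors' deposited table gives gh1 a log2 fold change of -8.96 for double mutant against control, -5.32 for csf1rb-heterozygous against control and 0.17 for single mutant against control.

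Of all 16536 genes, gh1 had the lowest difference in double mutant against control brains, and the lowest in both csf1rb-mutant groups against single mutant brains. It ranked 2 from the lowest in csf1rb-heterozygous against control brains. Values below those of every control library, as gh1 showed, were found for 16.6% of genes in double mutant brains and likewise for 16.6% in csf1rb-heterozygous brains. The share below every single mutant library was 8.32% in double mutant and 6.46% in csf1rb-heterozygous brains. In 195 genes (1.18%) each of the 5 control and single mutant libraries lay above each of the 6 csf1rb-mutant ones. gh1 was the 1 gene (0.00605%) in which the lowest of those 5 was at least 10 times the highest of the 6. gh1 was chosen for this pattern, so these ranks describe the selection.

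The deposited column headers number the libraries, and the 2 control libraries carry numbers 1 and 3. Among libraries of number 1, gh1 had 0 CPM in double mutant, 7.17 in csf1rb-heterozygous, 115 in single mutant and 103 in control brains. Among those of number 2 it had 0.575, 0 and 74.4 CPM in the same 3 mutant groups, with no control. Among those of number 3 it had 0, 0, 130 and, in control, 85.2 CPM. Since every csf1rb-mutant library lay below every other library, the split had to appear within each of the 3 numbers. It therefore says nothing about the numbering, and this look at the values was added after seeing the data.

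prl2 (ENSDARG00000018744) was low in every library and the 4 groups overlapped. Double mutant brains had 1.08, 2.23 and 2.08 CPM, csf1rb-heterozygous brains 1.60, 2.02 and 2.59, and single mutant brains 2.51, 2.71 and 1.60. Control brains had 1.64 and 6.33 CPM. Control replicate 2 stood apart at 2.33 times the next library (82 reads, 95% counting interval 5.03 to 7.85 CPM), and the other 10 libraries lay between 1.08 and 2.71 CPM with a median of 2.05. Group means were 1.79 ± 0.624, 2.07 ± 0.499 and 2.28 ± 0.592 CPM in double mutant, csf1rb-heterozygous and single mutant brains (SD, n = 3 each), and 3.98 ± 3.31 CPM in control brains (SD, n = 2). No neighbouring means differed by more than the larger SD. The log2(CPM + 1) difference from control was -0.68 in double mutant, -0.53 in csf1rb-heterozygous and -0.44 in single mutant brains (SE 0.380). Without control replicate 2 these differences were 0.054, 0.20 and 0.29, so 1 library sets their sign. Without control replicate 1 they were -1.42, -1.27 and -1.18.

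Most listed genes of skeletal muscle were also high in control replicate 2: of the 11 in the table, 9 had their highest value there, while mylpfb and tpma did not, nor did any of the 5 skin genes. The summed level of the 16 skin and muscle genes in the table was 229 to 303 CPM in double mutant, 236 to 274 in csf1rb-heterozygous and 259 to 320 in single mutant brains, and 339 and 395 CPM in control replicates 1 and 2. Much of this sum was the skin gene krt8, on average 144 of 261 CPM in double mutant and 136 of 367 CPM in control brains. myhz1.1, a fast muscle myosin heavy chain, had 26.8 CPM in control replicate 2, 0.657 in control replicate 1 and at most 4.93 in any mutant library. Whether muscle tissue in that library bears on prl2 was not tested. pomca and gh1 did not stand apart there.

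pomca (ENSDARG00000043135) was on average lowest in control brains and highest in csf1rb-heterozygous brains, with groups far closer to one another than those of gh1. Double mutant brains had 4.13, 4.82 and 7.76 CPM, csf1rb-heterozygous brains 5.08, 6.27 and 7.78, and single mutant brains 5.27, 7.32 and 3.42. Control brains had 3.81 and 4.09 CPM. Every double mutant and csf1rb-heterozygous value lay above both control values, in double mutant brains by as little as 4.13 against 4.09 CPM, whereas single mutant values overlapped with control. Non-overlap in the higher direction was found for 19.9% of all genes in double mutant against control and for 17.8% in csf1rb-heterozygous against control, so it is common with 2 control libraries. Means were 5.57 ± 1.93, 6.38 ± 1.35 and 5.34 ± 1.95 CPM in double mutant, csf1rb-heterozygous and single mutant brains (SD, n = 3 each), and 3.95 ± 0.196 CPM in control brains (SD, n = 2). The log2(CPM + 1) difference from control was 0.37 in double mutant, 0.56 in csf1rb-heterozygous and 0.31 in single mutant brains (SE 0.293), and no neighbouring means differed by more than the larger SD. The means at the ends of the order, csf1rb-heterozygous and control, differed by 2.43 CPM, more than the SD of either. Leaving out each library gave differences from control of 0.14 to 0.53 in double mutant (lowest without its replicate 3), 0.43 to 0.69 in csf1rb-heterozygous and 0.090 to 0.55 in single mutant brains (lowest without its replicate 2). Against single mutant brains, where gh1 was lower in both csf1rb-mutant groups, the pomca difference was 0.060 in double mutant and 0.25 in csf1rb-heterozygous brains. These ranged over the left-out libraries from -0.18 to 0.28 and from 0.014 to 0.47, with the lowest value of both without single mutant replicate 3.

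Other genes made in the pituitary gave few values. Of 9 other hormone genes, the table holds pomcb, a second pro-opiomelanocortin gene, whose level was 1.84 to 2.74 CPM in double mutant, 2.16 to 3.35 in csf1rb-heterozygous, 2.26 to 2.86 in single mutant and 1.64 and 3.55 in control brains. prl (pituitary prolactin), smtla and smtlb (somatolactins), tshba, fshb, lhb and cga (subunits of thyrotropin and the gonadotropins) are not among its genes, so no other hormone restricted to the pituitary could be set beside gh1. Each gene of the table exceeds 1 CPM in at least 3 libraries, and genes below that are not analysed here. Of 15 pituitary transcription factors, 5 are in the table, and pou1f1, which somatotrophs need, tbx19, lhx3 and pitx1 are not among them. The amount of pituitary tissue in each library was therefore not measured by its defining markers, and the labels describe brains removed from the skull without mentioning the gland.

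The 5 factors present are also expressed by brain cells. Among them, lhx4 lay between 2.27 and 9.10 CPM over all libraries, gata2a between 17.4 and 29.3, and eya1 between 6.60 and 11.6. nr4a1, an immediate early gene, had 40.1 to 123 CPM in double mutant, 91.3 to 127 in csf1rb-heterozygous and 86.7 to 147 in single mutant brains, and 60.8 and 66.4 CPM in control brains. None of the 5 passed the test in any comparison, with a smallest limma adjusted p of 0.398 (nr4a1, single mutant against control, difference 0.94), and 2 of them had an unadjusted p under 0.05 in that comparison. Neither edgeR nor DESeq2 called one.

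Around the hormones, 8 lists of the pituitary axis hold 154 symbols, of which 94 are in the table: the hormones and factors above, hypothalamic releasing and inhibiting factors and their receptors, receptors of the hormones, signalling after the growth hormone and prolactin receptors, prohormone processing, and other hypothalamic neuropeptides. None of the 94 passed limma's test (adjusted p under 0.05 over all genes) in double mutant against control brains, where 1.16% of all genes passed, and 7 had an unadjusted p under 0.05, as had 16.1% of all genes. None passed in csf1rb-heterozygous against control (background 0.671%), where 13 had an unadjusted p under 0.05 (15.6%), or in single mutant against control (0.472%), where 10 had (11.4%). None passed in double mutant against single mutant (0.943%), csf1rb-heterozygous against single mutant (0.187%) or double mutant against csf1rb-heterozygous brains (0.0847%), where 7, 6 and 5 had an unadjusted p under 0.05 (11.3%, 6.28% and 5.22% of all genes). edgeR also called 0 of them in each comparison, and DESeq2 called gnrh3 in double mutant against control and against csf1rb-heterozygous brains and pcsk1nl in csf1rb-heterozygous against control brains. With shares this low among all genes, a count of 0 among 94 is no result about these lists.

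**Figure D2:**
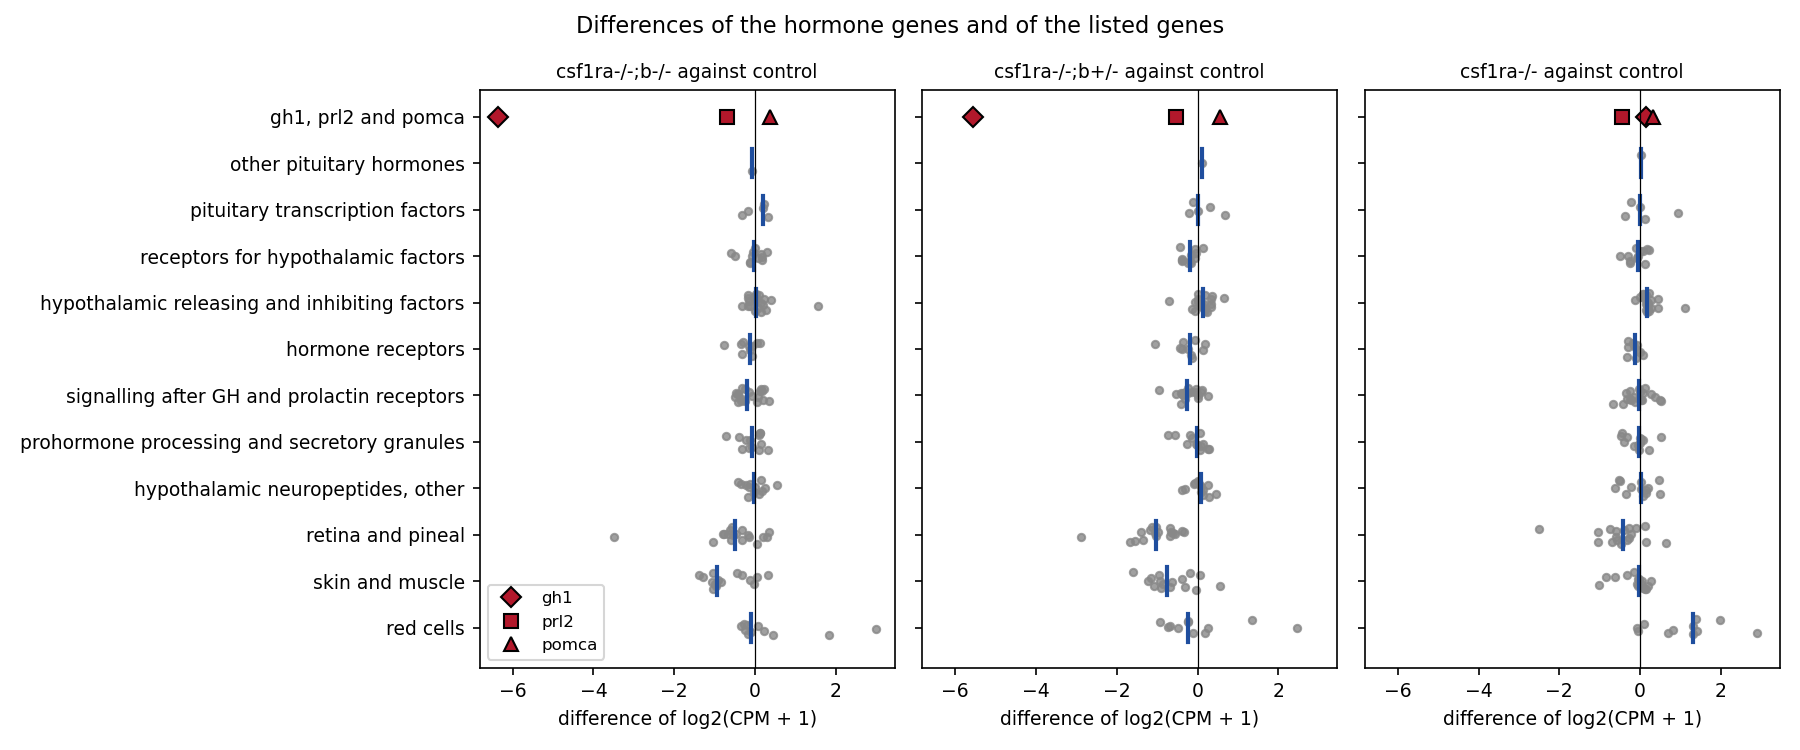
Difference of log2(CPM + 1) from control (horizontal axis) of the 3 hormone genes (red symbols, top row) and of every listed gene (grey points, 1 row per list), with the list median as a blue line. Panels from left to right show double mutant, csf1rb-heterozygous and single mutant brains. gh1 stands at -6.35 and -5.56 in the first and second panels and at 0.14 in the third, while the axis genes lie between -1.06 and 1.57.

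Of 27 listed hypothalamic factors that drive or restrain pituitary hormones, 20 were measured, and ghrh, the gene of growth hormone-releasing hormone, was not among them. limma called none of those measured, and DESeq2 called gnrh3. The 20 measured genes summed to 1183 to 1343 CPM in double mutant, 1215 to 1495 in csf1rb-heterozygous and 1298 to 1487 in single mutant brains, and 1130 and 1504 CPM in control brains. Much of this sum was adcyap1b, on average 653 of 1272 CPM in double mutant and 744 of 1317 CPM in control brains. The median difference of the 20 genes from control was 0.036 in double mutant, 0.13 in csf1rb-heterozygous and 0.17 in single mutant brains, against 0.014, 0.0013 and 0.0052 over all genes. The PACAP genes adcyap1b and adcyap1a overlapped with control in every mutant group. In double mutant brains adcyap1b had 620 to 679 CPM (control 621 and 867) and adcyap1a 10.5 to 16.1 (control 9.86 and 16.7). sst1.1, a somatostatin gene, had 72.6 to 83.3 CPM in double mutant brains, against 55.3 and 84.5 CPM in control brains. The other somatostatin genes measured lay above both control values in double mutant brains, as did 19.9% of all genes. sst1.2 had 19.2 to 22.1 CPM there (control 17.7 and 18.2) and sst3 129 to 138 (control 96.2 and 122). sst6 had 18.0 to 22.4 CPM (control 13.6 and 15.6). In csf1rb-heterozygous brains sst1.2 (19.4 to 25.8 CPM) and sst6 (17.2 to 21.1) also lay above both control values, as did 17.8% of all genes. sst1.1 and sst3 overlapped with control there. In single mutant brains sst1.2 also lay above control (19.0 to 24.7 CPM), while sst3 and sst6 overlapped with it. The share of all genes above control in single mutant brains was not counted. crhb, which drives ACTH release, had a difference of 0.013 in double mutant against control (95% interval -0.31 to 0.34), and trh, which drives thyrotropin release and acts on prolactin, one of 0.012 (-0.27 to 0.29).

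gnrh3, a gonadotropin-releasing hormone gene, came closest to the threshold. It had 10.4, 10.9 and 8.77 CPM in double mutant, 1.88, 3.42 and 4.99 in csf1rb-heterozygous and 11.8, 5.71 and 4.88 in single mutant brains, against 2.43 and 3.01 CPM in control brains. Double mutant values lay above both control values, as did those of 19.9% of all genes. The difference was 1.57 (SE 0.347, limma adjusted p = 0.0569). It passed the threshold when single mutant replicate 1 or csf1rb-heterozygous replicate 1 was left out of the shared fit (adjusted p = 0.0278 and 0.0446), and over all 11 such fits its limma adjusted p reached up to 0.235, without control replicate 1.

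Receptors of the hypothalamic factors and of the hormones were called by neither limma, edgeR nor DESeq2. The 12 measured receptors for hypothalamic factors had a median difference from control of -0.022 in double mutant, -0.19 in csf1rb-heterozygous and -0.060 in single mutant brains. adcyap1r1a, a PACAP receptor gene, had 261 to 310 CPM in double mutant and 265 to 368 in csf1rb-heterozygous brains. Both ranges lay below control (388 and 401 CPM), as did 16.6% of all genes in each group. Its single mutant values (290 to 393 CPM) overlapped with control, as did adcyap1r1b in every mutant group. ghrhrb, a receptor gene for growth hormone-releasing hormone, overlapped with control (6.17 and 8.28 CPM) in double mutant (6.03 to 7.70) and csf1rb-heterozygous brains (3.63 to 8.35). Its single mutant values (5.44 to 6.12 CPM) lay below control, and the share of all genes doing so was not counted. The 10 measured hormone receptors and their modulators had a median difference from control of -0.13 in double mutant, -0.19 in csf1rb-heterozygous and -0.13 in single mutant brains. ghrb, a growth hormone receptor gene, had 5.65, 6.69 and 5.42 CPM in double mutant brains, against 8.41 and 7.02 CPM in control brains, a difference of -0.33 (95% interval -0.80 to 0.14, limma adjusted p = 0.483). prlra, a prolactin receptor gene, had 12.1, 10.4 and 8.50 CPM in double mutant brains, against 10.1 and 11.6 CPM in control brains, a difference of -0.075 (-0.59 to 0.44). mc4r, the melanocortin receptor of hypothalamic feeding circuits, had 4.28 to 5.18 CPM in double mutant brains, against 4.34 and 4.01 CPM in control brains.

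No gene downstream of the growth hormone receptor was called by limma, edgeR or DESeq2. The 20 measured genes of the JAK2, STAT5, SOCS, IGF and IGF-binding protein families had a median difference from control of -0.19 in double mutant, -0.26 in csf1rb-heterozygous and -0.034 in single mutant brains. igf1 had 6.86, 2.37 and 4.22 CPM in double mutant, 2.44, 2.09 and 4.02 in csf1rb-heterozygous and 3.49, 5.42 and 5.61 in single mutant brains, against 5.59 and 7.02 CPM in control brains. The csf1rb-heterozygous values of igf1 lay below both control values, as did those of 16.6% of all genes. Its double mutant values overlapped with control. The igf1 difference was -0.49 in double mutant against control (95% interval -1.23 to 0.25, limma adjusted p = 0.511) and -0.95 in csf1rb-heterozygous against control (adjusted p = 0.217). socs2, a feedback inhibitor of growth hormone signalling, differed by -0.32 in double mutant against control brains (-0.75 to 0.12). It lay below control in all mutant groups, single mutant brains included, where gh1 overlapped with control. Values below both control values were found for 16.6% of all genes in double mutant and in csf1rb-heterozygous brains. socs2 had 6.90 to 8.06 CPM in double mutant, 5.51 to 8.91 in csf1rb-heterozygous and 6.15 to 8.52 in single mutant brains (control 9.27 and 9.64). These are levels in brain, whereas circulating IGF1 comes mainly from the liver.

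Of the machinery that cuts and packs prohormones, limma called no gene and DESeq2 called pcsk1nl in csf1rb-heterozygous against control brains. Its 13 genes had a median difference from control of -0.078 in double mutant, -0.014 in csf1rb-heterozygous and -0.019 in single mutant brains. pcsk1 and pcsk2, the convertases that cut pro-opiomelanocortin, differed by -0.40 and 0.11 in double mutant against control (limma adjusted p = 0.691 and 0.846). pcsk1nl, an inhibitor of the pcsk1 enzyme, had 425, 644 and 437 CPM in double mutant, 598, 436 and 426 in csf1rb-heterozygous and 694, 465 and 628 in single mutant brains, against 725 and 893 CPM in control brains. All mutant values lay below both control values. Of all genes, 16.6% lay below both in double mutant brains, and likewise 16.6% in csf1rb-heterozygous brains. The share in single mutant brains, or in all mutant groups together, was not counted, so how common this is remains unknown. The pcsk1nl difference was -0.71 in double mutant (limma adjusted p = 0.158) and -0.74 in csf1rb-heterozygous against control brains (adjusted p = 0.151).

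Markers of tissues that a dissected brain can carry along varied between libraries, and their part in the gh1 difference was not tested. The 18 retina and pineal genes in the table summed to 163, 28.8 and 265 CPM in double mutant, 112, 101 and 31.2 in csf1rb-heterozygous and 35.3, 304 and 144 in single mutant brains, and 200 and 158 CPM in control brains. The 3 lowest sums went with gh1 at 0.575 (double mutant replicate 2), 0 (csf1rb-heterozygous replicate 3) and 115 CPM (single mutant replicate 1). The 3 highest went with gh1 at 74.4 (single mutant replicate 2), 0 (double mutant replicate 3) and 103 CPM (control replicate 1). Against control, 14 of the 18 were lower in double mutant, 18 in csf1rb-heterozygous and 15 in single mutant brains (medians -0.50, -1.03 and -0.43). Against single mutant brains, 8 were lower in double mutant and 18 in csf1rb-heterozygous brains (medians 0.0050 and -0.47). The retina gene rho differed from control by -3.50 in double mutant, -2.88 in csf1rb-heterozygous and -2.51 in single mutant brains. It reached 0.254 CPM in double mutant and 2.53 in csf1rb-heterozygous brains, below both control values (lowest 8.25). In each of these groups 16.6% of all genes lay below control in this way. Single mutant values of rho reached 8.66 CPM and overlapped with control. The red cell genes, 11 gene IDs, summed to 265 to 439 CPM in double mutant, 194 to 349 in csf1rb-heterozygous and 363 to 677 in single mutant brains, and 157 and 255 CPM in control brains. The skin and muscle sum was higher in each control library than in every mutant library. The 16 skin and muscle genes had a median difference from control of -0.94 in double mutant, -0.77 in csf1rb-heterozygous and -0.039 in single mutant brains. The control libraries differed in these genes: 9 of the 11 muscle genes were highest in control replicate 2. krt5 and krt91 had 59.4 and 34.2 CPM in control replicate 1, against 9.33 and 6.87 in control replicate 2. Against single mutant brains, 14 of the 16 were lower in double mutant and 13 in csf1rb-heterozygous brains, the same direction as gh1. With all 11 libraries, limma, edgeR and DESeq2 called none of them in any comparison, with none at an unadjusted p under 0.05 in limma. The differences from control depended on which control library was kept. In double mutant brains nme2b.2 differed by -0.96, and by -2.42 without control replicate 1, and krt5 by -2.19 without control replicate 2. No red cell, skin or muscle gene of the lists was at 0 in any library, and at most 4 of the 18 retina and pineal genes were.

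**Figure D3:**
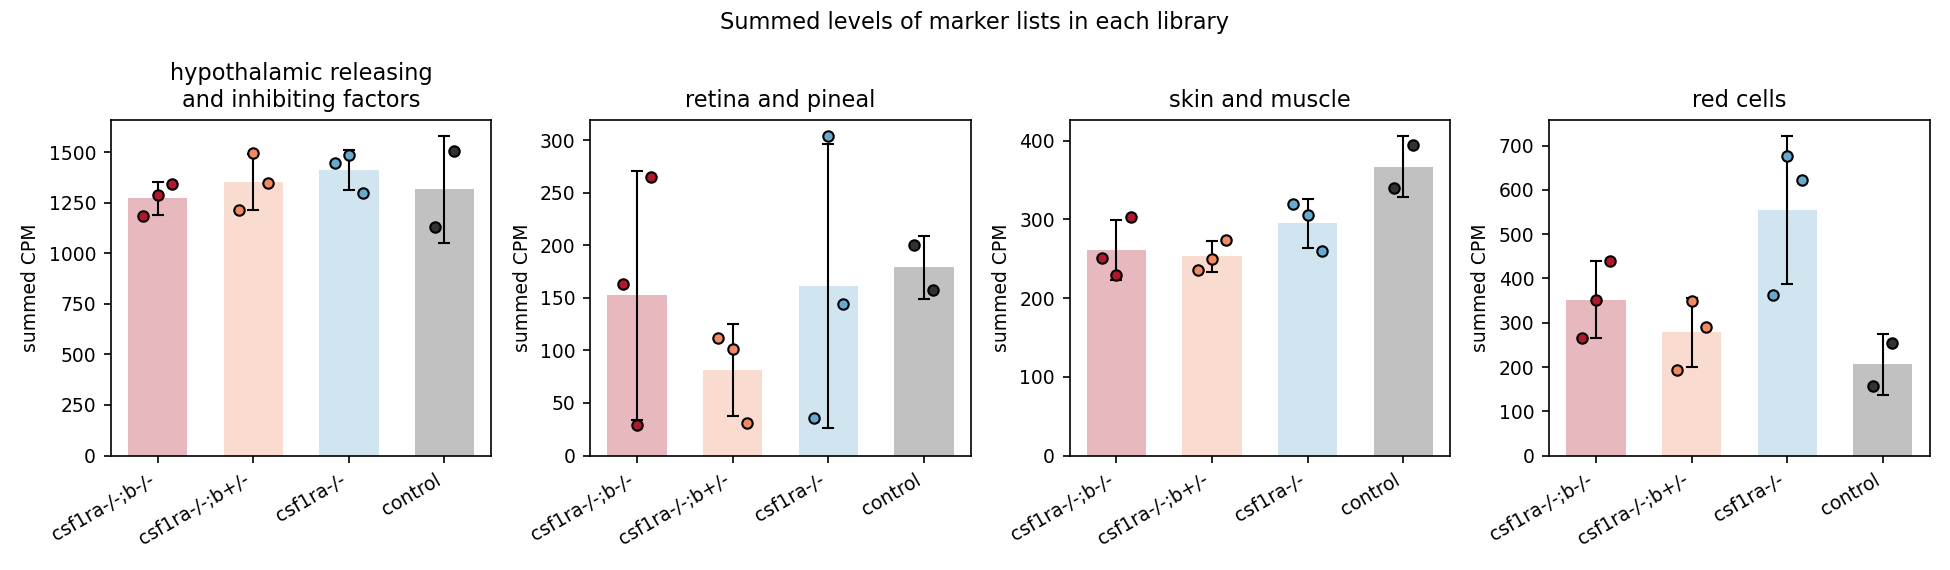
Summed CPM (vertical axes) of hypothalamic releasing and inhibiting factors, retina and pineal genes, skin and muscle genes and red cell genes in the 4 groups. The most abundant genes weigh most in a sum, adcyap1b among the hypothalamic factors and krt8 among the skin and muscle genes. Points are libraries, bars are group means and error bars are 1 SD (n = 3, and 2 for control). Double mutant and csf1rb-heterozygous values lie within or close to the range of the other libraries in each panel, and the skin and muscle sum is highest in both control libraries.

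Among the 45 genes of these tissue lists, limma called 2, both haemoglobin genes, and DESeq2 also called hbba1, hbba2, slc4a1a and alas2, which are further red cell genes. hbaa1 had 46.0, 66.4 and 77.1 CPM in double mutant, 47.3, 82.0 and 54.5 in csf1rb-heterozygous and 126, 259 and 205 in single mutant brains, and 74.1 and 67.6 CPM in control brains. It fell in double mutant against single mutant brains (log2 difference -1.59, SE 0.271, limma adjusted p = 0.0173) and in csf1rb-heterozygous against single mutant brains (-1.65, adjusted p = 0.0406). hbaa2 fell in csf1rb-heterozygous against single mutant brains (-2.31, SE 0.361, adjusted p = 0.0298). Every single mutant value of hbaa1 lay above both control values, whereas for gh1 these groups overlapped. The control values of hbaa1 lay within the range of double mutant and of csf1rb-heterozygous brains, whereas for gh1 they lay above both. For both genes the mean was highest in single mutant brains. An hbba1 gene ID instead exceeded control in every mutant group, by 2.99 in double mutant, 2.45 in csf1rb-heterozygous and 2.89 in single mutant brains. DESeq2 called hbba1 in double mutant and in single mutant against control brains. Leaving out 1 library of the groups compared kept the hbaa1 calls in 2 of 6 fits each and the hbaa2 call in 1 of 6, with adjusted p up to 0.211, without csf1rb-heterozygous replicate 1. Reads of 50 bases can be shared between haemoglobin copies, so these levels are uncertain.

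Genes with the profile most like each hormone gene were found by Pearson's r of log2(CPM + 1) over the 11 libraries. The points share genotype, library and depth, so r is a description with no p. For gh1 the 5 highest were CU499330.1 (r = 0.961), LIMD1 (0.948), csf1rb (0.945), zgc:123010 (0.943) and si:dkey-48g21.7 (0.941). LIMD1 had 5.08, 5.54 and 3.68 CPM in double mutant and 7.52, 3.90 and 6.94 in csf1rb-heterozygous brains, against 15.3, 11.1 and 12.4 CPM in single mutant and 13.5 and 12.7 CPM in control brains. Its csf1rb-mutant values lay below all others, as those of gh1 did, but by a smaller factor. Since gh1 falls into 2 separate sets of libraries, a high r with it shows mainly a difference between those sets.

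For prl2 the most alike were myhz1.1 (r = 0.917), BX571880.1 (0.906), nme2b.2 (0.902), tnnc2 (0.893) and tnnt3b (0.868). tnnc2 and tnnt3b encode troponins of fast muscle, and myhz1.1, nme2b.2 and tnnt3b are on the skin and muscle list. All 5 had their highest value in control replicate 2, tnnc2 with 9.64 CPM there against 0.952 to 3.81 CPM elsewhere. For pomca the most alike were thbs3a (0.885), NOCT (1 of many) (0.880), aplnra (0.876), si:dkey-35m8.1 (0.875) and si:ch211-80h18.1 (0.873). thbs3a, a thrombospondin of the extracellular matrix, had 2.22, 2.73 and 4.02 CPM in double mutant, 3.20, 2.58 and 3.37 in csf1rb-heterozygous and 2.19, 4.10 and 1.67 in single mutant brains, against 1.91 and 2.31 CPM in control brains. aplnra, an apelin receptor gene, lay between 26.1 and 34.7 CPM over all libraries. The 3 hormone genes shared none of these genes.

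**Figure D4:**
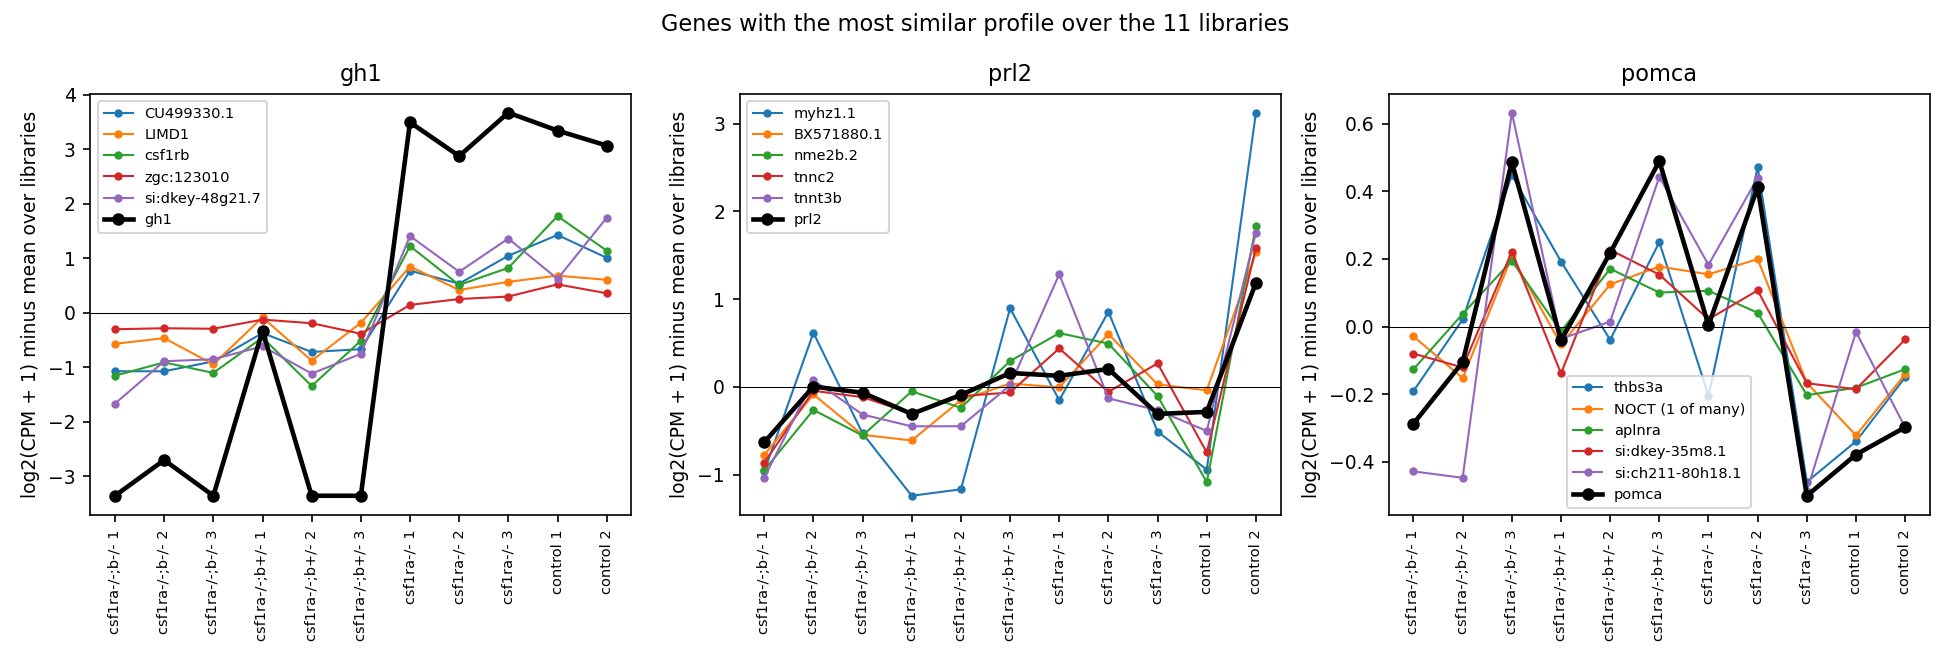
log2(CPM + 1) minus its mean over the 11 libraries (vertical axes, each with its own range) for gh1, prl2 and pomca (black) and the 5 genes with the highest Pearson r with each (colours). Libraries run along the horizontal axis by genotype and replicate. The gh1 set steps up between the 6 csf1rb-mutant and the 5 other libraries, the prl2 set peaks in control replicate 2, and pomca is lowest in single mutant replicate 3 and the control libraries.

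limma called none of the measured chromosomal neighbours of the hormone genes. With 0.0847% to 1.16% of all genes called per comparison, a count of 0 among so few genes is no result about them. Each gene was counted in 6 comparisons that share libraries, and 5.22% to 16.1% of all genes had an unadjusted p under 0.05. In RefSeq's gene order (assembly GRCz12tu), 3 protein-coding genes on each side of gh1 were looked up, a choice made after seeing the data, and 3 of these 6 are in the table: maptb, scn4ab and arhgap27l. Their differences lay between -0.47 and 0.63 over the 6 comparisons, and limma called 0 of 18 (smallest adjusted p = 0.238, 2 with an unadjusted p under 0.05). For prl2, 0 of 30 tests on 5 neighbours were called, and for pomca 0 of 24 on 4 neighbours, with none at an unadjusted p under 0.05 in either set. None of the 3 hormone genes lies on the chromosome of csf1ra or csf1rb in that assembly.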

How the data were processed

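RNA of whole brains was sequenced as 11 libraries of single reads of 50 nucleotides after cDNA pre-amplification and Tn5 tagmentation, per the labels' protocols. The submitters' processing notes name HISAT2, edgeR and the build GRCz10, and other settings are not given in the sources. Deposited were a signal per gene, CPM, which the authors scaled per library (factors 0.963 to 1.04). Within 0.001 reads, 100% of values were whole multiples of 1 read, so reads were recovered. The deposited log2 fold changes and p-values are the authors' own, and are quoted only where named as such.

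Because the values are scaled CPM, not raw counts, limma 3.58.1 (R 4.3.3) with a mean-variance trend was fitted to log2(CPM + 1) of all 16536 genes and 11 libraries as 4 group means, two-sided, with Benjamini-Hochberg adjustment over all genes and a threshold of 0.05. All 6 pairs of groups were compared, and those with control share its 2 libraries. On simulated counts for double mutant against control over 16536 genes, 99% of the genes changed 4-fold were recovered. The changed genes were drawn from those above a minimum mean CPM, and every gene had the same dispersion, without library or tissue effects. This share therefore does not apply to genes of low level or larger spread. In the data rho, a retina gene, differed by -3.50 in that comparison and did not pass (limma adjusted p = 0.0763). Alternatives were edgeR 4.0.16 quasi-likelihood and DESeq2 1.42.0 on recovered reads, other pseudocounts (0.5 and 2), a mean CPM filter of 1, replicate blocks and leaving out each library.

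The hormone genes and the gene lists (218 symbols, 138 gene IDs in the table) were chosen with earlier results of these data known, and the hormone genes were not tested. Genes were named by rule: the hormone genes, the targeted genes, listed genes that were called, measured other pituitary hormones and transcription factors (1 factor is not reported here), and the 5 genes most like each hormone gene. Other axis genes and neighbours named were chosen after their values were seen. Nothing says that libraries came from separate fish, so p-values measure the spread between these libraries. Counting intervals are exact Poisson (group ratios: exact binomial) intervals. Promoter and protein sequences are not analysed here.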

Additional observations from a re-analysis of the deposited data

How the results depend on the processing

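The pomca differences, and those of prl2 between mutant groups, moved by less than 1 SD under every alternative run, and the 2 other pseudocounts, the CPM filter and both replicate blocks moved no hormone difference by more. The lower gh1 of double mutant and csf1rb-heterozygous brains against single mutant and control brains held under all of them. gh1 was chosen for this difference and its 2 sets of libraries do not overlap, so this was bound to hold and lends it no support. Fits on recovered reads gave larger gh1 differences for double mutant brains: -8.96 with edgeR and -8.96 with DESeq2 for double mutant against control, -9.14 and -9.12 against single mutant, and -3.65 and -3.64 against csf1rb-heterozygous brains. Those for csf1rb-heterozygous brains were smaller, -5.32 with edgeR and -5.31 with DESeq2 against control and -5.49 and -5.48 against single mutant. DESeq2 gave prl2 -1.16 for double mutant against control. Leaving out each library gave gh1 ranges of -1.30 to 0.22 for double mutant against csf1rb-heterozygous, -6.57 to -5.05 for csf1rb-heterozygous against control and -6.71 to -5.19 against single mutant brains. It gave prl2 ranges from control of -1.42 to 0.054 (double mutant), -1.27 to 0.20 (csf1rb-heterozygous) and -1.18 to 0.29 (single mutant).

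Counts of called genes moved more. DESeq2 called 621, 528 and 285 genes in double mutant, csf1rb-heterozygous and single mutant brains against control, 430 and 126 in the first and second against single mutant, and 98 in double mutant against csf1rb-heterozygous brains, with 2, 1, 3, 5, 5 and 1 listed genes in the same order. Leaving out each library gave 74 to 243, 48 to 130, 29 to 102, 66 to 180, 9 to 36 and 8 to 36 genes in that order, and 0 to 4, 0 to 3, 0 to 2, 0 to 3, 0 to 2 and 0 to 0 listed genes. The lowest gene counts came without double mutant replicate 1, csf1rb-heterozygous replicate 3, control replicate 2, single mutant replicate 3 and, for the last 2 comparisons, csf1rb-heterozygous replicate 1, and the count of 36 in the last one without double mutant replicate 3. Pseudocount 2 called 1 listed gene in single mutant against control. With a replicate block by title number, 322, 294 and 24 genes were called in double mutant against control, single mutant and csf1rb-heterozygous brains, with 3 listed genes against control, 4 against single mutant, 2 in csf1rb-heterozygous and 3 in single mutant against control. With a block by description number, 136 genes were called in single mutant against control and 367 in double mutant against single mutant, with 4 listed genes in each, 1 in csf1rb-heterozygous and 2 in double mutant against control. The listed genes called under either block were haemoglobin genes, alas2, slc4a1a and rho, none of the pituitary axis. The numbers do not pair the libraries by the labels: 8 of 15 pairs with the same title number and 9 of 15 with the same description number deviated together (r over 0.1), with a lowest r of 0.0253 and -0.0130, although 10 and 11 of 11 libraries correlated best with their own number, a hint from the data and not the design. Control has 2 libraries, and prl2 rests on 17 to 82 reads and pomca on 47 to 120 reads a library, which limits what can be seen in them. The cause of these changes was not tested.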
